A study of Macaca mulatta with 33 samples.

Results

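One day of human chorionic gonadotropin (hCG) given together with trilostane was compared with no treatment in the rhesus corpus luteum at luteal day 10. The comparison rests on 8 of the 33 arrays of the series, 4 of treated and 4 of untreated tissue. All probe sets that carry 1 gene symbol entered it. These are 24956 of 52865 probe sets, and 17342 of them, for 10368 genes, passed a filter on low signal.

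The study profiled whole corpora lutea, dissected from adult cycling rhesus macaque females, on Affymetrix Rhesus Genome arrays with total RNA. All treated groups at day 10 had received hCG, in rising doses, for 1 day as an imitation of early pregnancy. The hCG and trilostane group received both agents and no progestin, the hCG group received hCG alone, and a further group received hCG, trilostane and the synthetic progestin R5020. The untreated animals received none of these agents, and no group given trilostane without hCG was analysed here. The array names place untreated replicates 1 to 4 and the hCG and the hCG and trilostane groups in array set 1. Untreated replicates 6 to 9 and the R5020 group are in array set 2. The array titles mark all 4 untreated arrays of set 1 and all 4 hCG arrays as reanalysis, and none of the hCG and trilostane arrays. What the mark means is not stated. It cannot be told apart from treatment in the main comparison, nor from trilostane where the hCG and trilostane group is set against hCG alone.

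Chorionic gonadotropin acts on the luteinizing hormone receptor of luteal cells, raises cyclic AMP and keeps the gland making progesterone from cholesterol when a pregnancy begins. Progesterone is formed from pregnenolone by 3-beta-hydroxysteroid dehydrogenase, which trilostane blocks, and R5020 activates the progesterone receptor without being made by the gland. The comparison asks which transcripts changed with hCG and trilostane together, while that enzyme was inhibited. Without a group given trilostane alone, effects of hCG and of trilostane cannot be told apart in it. Steroid levels were not among the values used here.

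Values are log2 intensities per probe set, centred on a common array median. Before centring, the medians of the 8 arrays ran from 6.20 to 6.32, with hCG and trilostane replicate 2 at the top. A gene was called when its Benjamini-Hochberg adjusted p, from a limma fit of the 20 day 10 arrays, was under 0.05. Changes are given ± the standard error of the fit, with 4 arrays a group. The labels do not say whether each sample came from a separate animal, so these p-values measure the spread between samples. The tissue carried luteal markers at high signal: STAR, which carries cholesterol into mitochondria, averaged 14.48 in untreated and 14.62 in treated tissue. HSD3B2, the enzyme that trilostane inhibits, averaged 13.40 and 13.71.

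With hCG and trilostane, 258 of 10368 genes were called (2.49%), of which 100 were higher (0.965%) and 158 lower (1.52%). On the level of probe sets, 622 of 28248 were called (2.2%), 248 higher (0.878%) and 374 lower (1.32%). At least 2-fold changes were carried by 56 of the higher and 47 of the lower genes. The arrays of the 2 groups did not overlap for 236 of the 258 called genes, against 11% of all genes. The 14 largest rises and the 14 largest falls named below were taken only from called genes without overlap. The median change was 1.08 among the higher genes and -0.72 among the lower ones. The split between directions moved with the scaling of the arrays. It was 114 higher and 136 lower without centring, 146 and 115 after quantile normalization, and 128 and 90 when arrays were centred on the kept probe sets. The count of called genes fell to 129 to 165 without untreated replicate 1, 2 or 3 or hCG and trilostane replicate 1, 2 or 3. It was 100 with replicate number as a term and 110 in a fit of the 8 arrays alone. Among the genes named by rule, the fit of 8 arrays ended calls that no single array ended for CYP11B1 (adjusted p = 0.070), DNAJA4 (0.087), FST (0.067), RCAN1 (0.055), IRS2 (0.052), VCAM1 (0.053) and FZD4 (0.052).

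**Figure D1:**
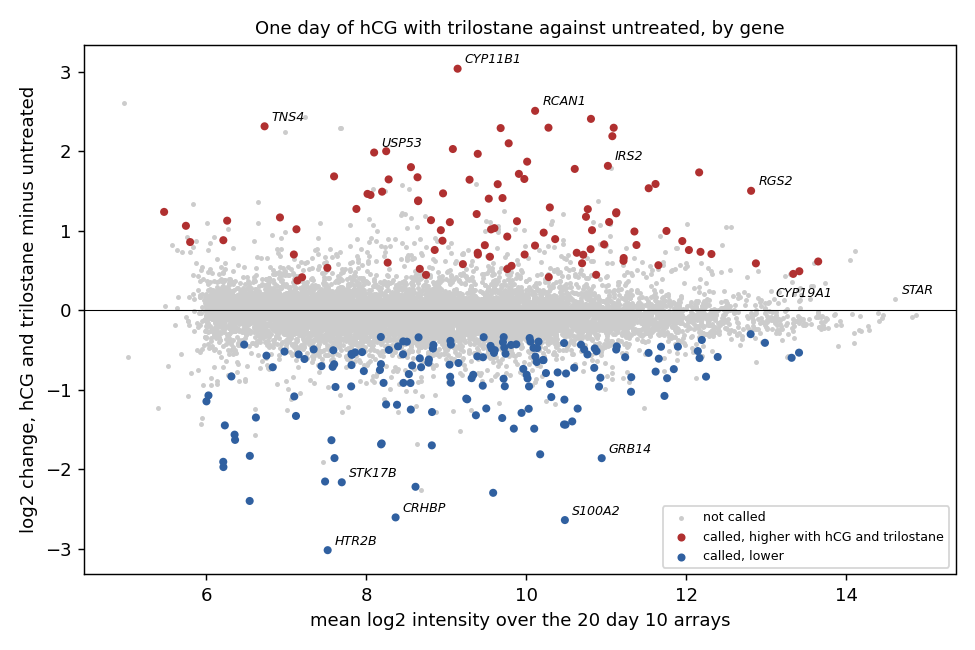
Log2 change with hCG and trilostane (vertical axis) against mean log2 intensity over the 20 day 10 arrays (horizontal axis), 1 point per gene. The 100 genes called higher are red, the 158 called lower blue and the others grey. CYP11B1, at 3.04, and HTR2B, at -3.02, lie farthest from 0 among the called genes.

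Among the steroid enzymes, CYP11B1 carried the largest rise of the comparison. It encodes steroid 11-beta-hydroxylase, which forms cortisol in the adrenal cortex. Its signal was 6.03, 6.63, 8.16 and 8.75 in the untreated arrays and 9.75, 9.81, 10.28 and 11.87 with hCG and trilostane. All treated arrays lay above all untreated ones, which the rule for naming the largest rises required, and the untreated arrays were the more scattered. CYP11B1 rose by 3.04 ± 0.53 (8.21-fold, adjusted p = 0.0060), and its second kept probe set was also called, at 1.85. A near-identical gene could share these probes, which was not tested.

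HSD17B7, an enzyme that reduces estrone to estradiol and also serves cholesterol synthesis, was the other called steroid enzyme. Untreated arrays read 10.35, 10.44, 10.57 and 11.25, and treated arrays 11.55, 12.32, 12.37 and 12.72. It rose 3.01-fold (1.59 ± 0.25, adjusted p = 0.0030), and all 3 of its probe sets were called higher. In the list of 19 measured steroidogenesis genes these 2 were the calls, none was lower, and 14 lay above 0 (median 0.10), beside a median of -0.04 and 4252 of 10368 above 0 for all genes. Of all genes 0.965% were called higher and 1.52% lower. CYP17A1, which makes androgens, changed by 1.10 ± 0.33 and missed the threshold (adjusted p = 0.088) although its arrays did not overlap. CYP19A1, the aromatase that makes estrogens, stood at 12.88 in untreated and 12.98 in treated tissue. Its change of 0.09 ± 0.48 had a wide error. STAR (0.14 ± 0.05, adjusted p = 0.23) and HSD3B2 (0.31 ± 0.18, adjusted p = 0.43) were not called.

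Genes of cholesterol synthesis lay high as a group, with 15 of 16 measured members above 0 and a median of 0.61. DHCR7 and IDI1 were called higher and none was called lower, beside 0.965% and 1.52% of all genes. DHCR7 catalyses the last step to cholesterol. Its untreated arrays read 7.91, 8.20, 8.63 and 8.69, its treated arrays 9.68, 9.84, 9.92 and 10.33, with no overlap. It rose 3.00-fold (1.58 ± 0.27, adjusted p = 0.0053). IDI1, which isomerises isopentenyl diphosphate early in the pathway, rose 2.16-fold (adjusted p = 0.048). The IDI1 call ended without any 1 array other than untreated replicate 3 (adjusted p 0.066 to 0.14). Members that did not pass include SQLE, the squalene epoxidase, at 1.00 (adjusted p = 0.18), and INSIG1, which retains the sterol sensor in the endoplasmic reticulum, at 1.03 (adjusted p = 0.13). FDPS, which makes farnesyl diphosphate, was at -0.03. The averaged level of the list was 9.49 to 9.97 in the untreated arrays of set 1 and 10.07 to 10.46 in the treated ones. It was 9.80 to 10.49 in the untreated arrays of set 2, a range that overlaps the treated arrays of set 1. With hCG, trilostane and R5020 in set 2 it was 10.16 to 10.79. There 13 of the 16 genes lay above 0 (median 0.44) and 0 were called. Of 13 genes of cholesterol uptake, storage and efflux, 1 was called, CAV1, the main protein of caveolae, which fell by 0.46 (adjusted p = 0.044). CAV1 lost the call without any 1 array other than hCG and trilostane replicate 4 (adjusted p 0.059 to 0.13).

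The next largest rises were those of RCAN1, PLCG2 and TNS4. RCAN1, a brake on the phosphatase calcineurin, read 8.59, 8.76, 8.87 and 9.08 untreated. With hCG and trilostane it read 9.84, 11.15, 11.65 and 12.69, a spread wider than that of the untreated arrays, with no overlap, as the naming rule required. It rose 5.69-fold (2.51 ± 0.46, adjusted p = 0.0080), and all 3 probe sets were called. PLCG2, a phospholipase C, rose by 2.41 (adjusted p = 0.014), though its other probe set stood at -0.17 and the mean of both changed by 1.12 (adjusted p = 0.023). TNS4, a tensin of cell adhesion sites, rose at least 3.49-fold from untreated signals of 5.49 to 5.82, all below the array median (adjusted p = 0.0031). SYTL3, a synaptotagmin-like protein of vesicle traffic, rose by 2.03, on 1 of 2 probe sets, with the other at 0.92. Its call ended without untreated replicate 1 (adjusted p = 0.057).

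USP53, a member of the ubiquitin-protease family found at cell junctions, had the smallest adjusted p among the rises. Its untreated arrays read 7.24, 7.36, 7.39 and 7.48, and its treated arrays 8.99, 9.24, 9.55 and 9.61. The groups were far apart beside the narrow range of the untreated arrays. USP53 rose 3.95-fold (1.98 ± 0.21, adjusted p = 7.3e-05). The change was 1.90 to 2.10 when any 1 array was left out.

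Adenosine deaminase, ADA, which clears adenosine, read 9.66, 10.00, 10.15 and 10.34 untreated and 11.91, 12.06, 12.11 and 12.81 treated. It rose 4.56-fold (adjusted p = 0.0057), and 2 of its 3 probe sets were called. CEBPA, a transcription factor of differentiation and lipid metabolism, rose 3.65-fold (1.87 ± 0.36, adjusted p = 0.0098), with untreated arrays of 8.67 to 9.12 and treated arrays of 10.21 to 11.42. All 3 CEBPA probe sets were called. HTRA3, a secreted serine protease, rose 4.89-fold (adjusted p = 0.0063). It was the 1 member of 28 matrix and protease genes called higher, beside 0.965% of all genes. DNAJA4, a co-chaperone of heat shock proteins, rose 4.29-fold (adjusted p = 0.012), and 1 of its treated arrays, replicate 4, stood at 8.84 against 10.93 to 11.58 in the others.

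Other large rises were less secure. TTC19, an assembly factor of mitochondrial complex III, was called on 1 of 3 probe sets, at 2.29, while another stood at -0.55. MYOM1, a sarcomere protein, rose by 2.30 ± 0.59 (adjusted p = 0.047) and lost its call without any 1 array but hCG and trilostane replicate 4 (adjusted p 0.054 to 0.14). KDELR2, which returns escaped proteins to the endoplasmic reticulum, rose by 1.97 (adjusted p = 0.044) on all 4 probe sets. Its call ended without untreated replicate 1, 2 or 3 or hCG and trilostane replicate 2, 3 or 4 (adjusted p 0.064 to 0.14).

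Among genes of the response to cyclic AMP, 1 of 28 was called, beside 2.49% of all genes. RGS2, which shortens signalling by G protein-coupled receptors, read 11.78, 12.12, 12.23 and 12.25 untreated and 13.44, 13.48, 13.49 and 13.97 treated. It rose 2.83-fold (1.50 ± 0.20, adjusted p = 8.9e-04), and the change was 1.38 to 1.55 when any 1 array was left out. Its other probe set stood at 0.49 and was not called, and the mean of both changed by 1.00 (adjusted p = 0.0020). The median of the 28 genes was -0.10. Of 20 immediate early genes, GADD45B, a stress-induced regulator of MAP kinases, was the 1 called and rose 3.12-fold (adjusted p = 0.018). That call ended without untreated replicate 3 or hCG and trilostane replicate 1 or 3 (adjusted p 0.05 to 0.064). Above 0 lay 7 of the 20 (median -0.18). FOS was at 0.40 (adjusted p = 0.78) and NR4A1, an orphan nuclear receptor induced by gonadotropin, at -0.69 (adjusted p = 0.16).

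Insulin signalling held calls in both directions, with 3 of 22 genes higher and 1 lower, beside 0.965% and 1.52% of all genes. IRS2, the docking protein of the insulin receptor, read 9.42, 9.59, 10.21 and 11.13 untreated and 11.54, 11.83, 11.89 and 12.36 treated. It rose 3.52-fold (1.82 ± 0.27, adjusted p = 0.0021). GRB14, an adaptor that inhibits that receptor, read 11.55, 11.58, 12.09 and 12.85 untreated and 10.03, 10.11, 10.22 and 10.27 treated. It fell 3.63-fold (-1.86 ± 0.33, adjusted p = 0.0069), and the treated arrays of GRB14 spanned less than the untreated ones. IGFBP4, a binding protein of insulin-like growth factors, rose 1.69-fold (adjusted p = 0.015), but not without untreated replicate 3 (adjusted p = 0.050). FOXO4, a forkhead factor held back by insulin, rose by 0.41 (adjusted p = 0.046) and lost its call without any 1 array except hCG and trilostane replicate 4 (adjusted p 0.064 to 0.14). IGF1 itself was at 1.08 (adjusted p = 0.052) on its brightest probe set. All 4 of its probe sets lay above 0 (0.84 to 1.15), and 2 of them were called higher.

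**Figure D2:**
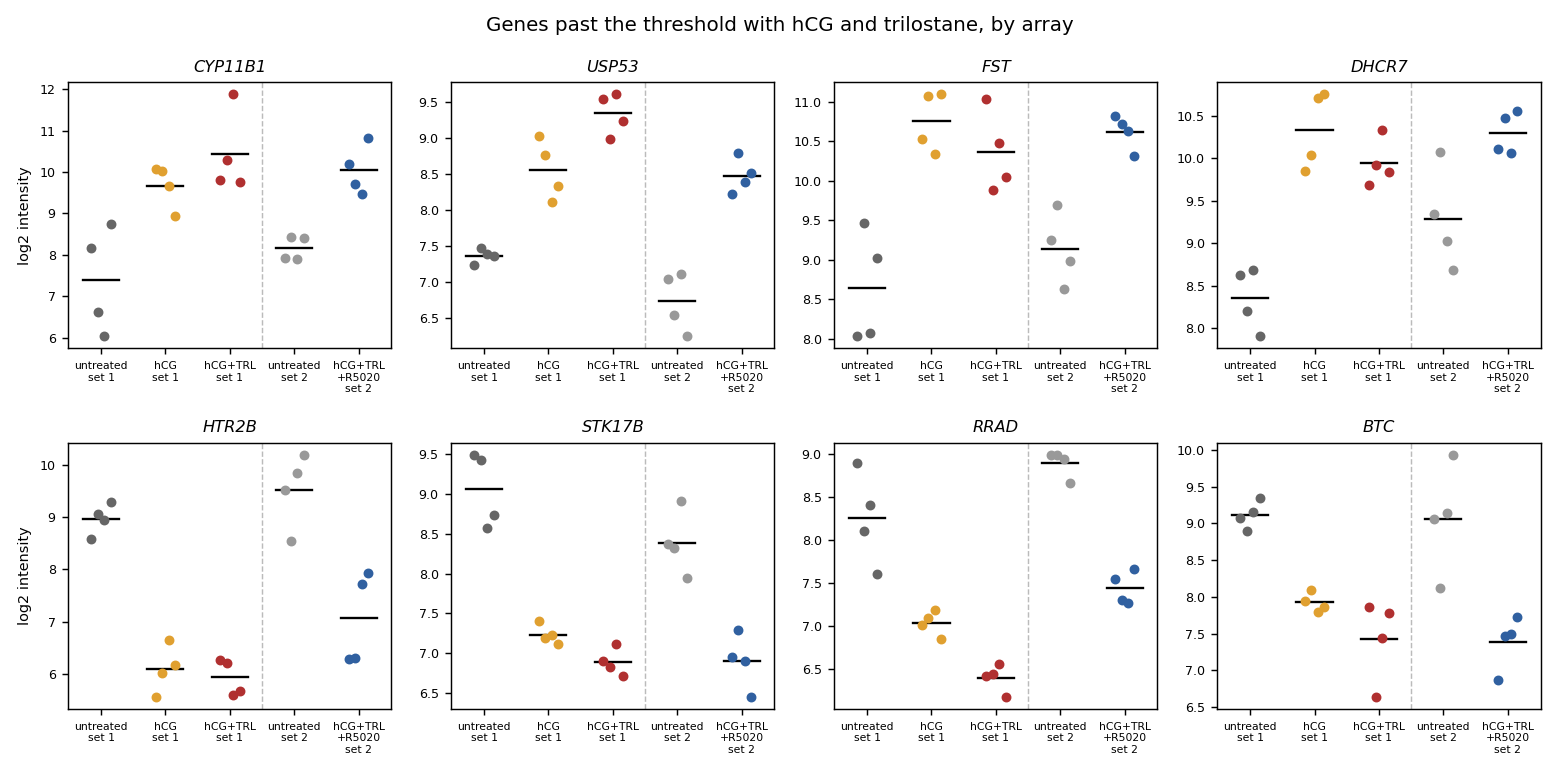
Log2 intensity (vertical axis) of 8 called genes in each day 10 array, with groups along the horizontal axis and a dashed line between array sets 1 and 2. Points are arrays and bars are group means. In set 1 the hCG and trilostane arrays of all 8 genes lie outside the range of the untreated arrays. The naming rule required this for all but FST and DHCR7.

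The largest fall was that of HTR2B, a serotonin receptor. Its untreated arrays read 8.57, 8.95, 9.05 and 9.28, and its treated arrays 5.60, 5.69, 6.21 and 6.28. The treated mean lay under the median of all values, 6.19, so its fold is a lower bound. HTR2B fell at least 6.84-fold (-3.02 ± 0.38, adjusted p = 4.9e-04).

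S100A2, a calcium-binding protein of epithelia, read 11.02, 11.81, 11.81 and 13.65 untreated and 9.09, 9.21, 9.62 and 9.82 treated. It fell 6.23-fold (adjusted p = 0.0043). CRHBP, which binds corticotropin-releasing hormone, fell 6.09-fold from a mean of 9.52 to 6.91. Its treated arrays ran from 4.86 to 8.36, and the call ended without untreated replicate 3 (adjusted p = 0.05). ST6GAL2, a sialyltransferase, fell at least 2.31-fold (-2.40 ± 0.37, adjusted p = 0.0022). Its treated arrays all read below that median, at 4.36 to 5.69.

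STK17B and RRAD had the smallest adjusted p of all called genes. STK17B, a kinase related to death-associated protein kinases, read 8.58, 8.74, 9.43 and 9.49 untreated and 6.72, 6.83, 6.90 and 7.12 treated. It fell 4.48-fold (-2.16 ± 0.22, adjusted p = 7.2e-05) with both probe sets called. RRAD, a Ras-related GTPase that restrains calcium channels, read 7.61, 8.11, 8.41 and 8.89 untreated and 6.17, 6.42, 6.44 and 6.55 treated. It fell 3.63-fold (-1.86 ± 0.19, adjusted p = 7.2e-05). STK26, a kinase of the Ste20 family, fell 4.45-fold (adjusted p = 0.0022) on all 4 probe sets. In none of these 3 did an untreated array overlap a treated one, which the rule for naming the largest falls required.

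NEDD1, which recruits gamma-tubulin to the spindle, fell 4.91-fold from 10.53 to 11.32 untreated to 8.61 to 8.88 treated (adjusted p = 0.0095), with all 4 probe sets called. NABP1, a protein of single-stranded DNA, fell 3.51-fold on 3 of 3 probe sets (adjusted p = 0.0021). DUSP5, a nuclear phosphatase of the ERK kinases, fell 4.66-fold (adjusted p = 0.025). The DUSP5 call ended without untreated replicate 2 or 3 or hCG and trilostane replicate 1 or 2 (adjusted p 0.05 to 0.087). SPHKAP, an anchor of protein kinase A, fell at least 1.75-fold (adjusted p = 0.019), a call that ended without untreated replicate 1 or 3 or hCG and trilostane replicate 3 (adjusted p 0.053 to 0.065). TNFRSF11B, the decoy receptor osteoprotegerin, fell at least 2.20-fold (adjusted p = 0.014).

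Of 14 EGF family and ovulatory genes, BTC was the 1 called, beside 2.49% of all genes. It encodes betacellulin, a ligand of the EGF receptor. Its arrays read 8.89, 9.08, 9.16 and 9.35 untreated and 6.64, 7.45, 7.78 and 7.86 treated. BTC fell 3.22-fold (-1.69 ± 0.30, adjusted p = 0.0068). AREG, amphiregulin of the same ligand family, missed the threshold at -0.58 ± 0.17 (adjusted p = 0.083), with hCG and trilostane replicate 2 at 12.31 and the others at 13.01 to 13.13. The median of the 14 was -0.41.

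In the activin, inhibin and TGF-beta family, 1 of 28 members rose and 3 fell, beside 0.965% and 1.52% of all genes. FST, follistatin, which binds activin, read 8.03, 8.08, 9.02 and 9.47 untreated and 9.88, 10.06, 10.47 and 11.04 treated. It rose 3.28-fold (1.71 ± 0.31, adjusted p = 0.0080), and its 3 probe sets were all called. The fallen members act in BMP and TGF-beta signalling. BMP4, a ligand, fell 1.95-fold (7.60 to 8.54 untreated, 6.95 to 7.22 treated, adjusted p = 0.014). SMAD7, an inhibitor within the pathway, fell 1.64-fold (adjusted p = 0.025) and lost its call without any 1 array other than untreated replicate 4 and hCG and trilostane replicate 4 (adjusted p 0.053 to 0.083). SMAD3, a signal transducer, fell 1.81-fold (adjusted p = 0.036) on 1 of 4 probe sets, and its call ended without untreated replicate 1, 2 or 3 or hCG and trilostane replicate 2, 3 or 4 (adjusted p 0.059 to 0.11). The activin subunit gene INHBA was at -0.30 (adjusted p = 0.83) and INHA at 0.12 (adjusted p = 0.69).

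Some genes of matrix and growth control outside the naming rule were looked at after their values were seen. LTBP1, which stores latent TGF-beta in matrix, fell 2.81-fold (adjusted p = 0.016). CTHRC1, a secreted collagen-related protein, read 11.86, 12.15, 12.58 and 12.73 untreated and 10.88, 11.23, 11.38 and 11.52 treated. It fell 2.11-fold (adjusted p = 0.0056), ADAM12, a membrane metalloprotease, fell 1.65-fold (adjusted p = 0.0090), and MXRA5, a matrix-associated protein, fell 2.64-fold (adjusted p = 0.0094). YAP1, a transcriptional co-activator, fell 1.70-fold (adjusted p = 0.032), and its DNA-binding partner TEAD4 fell 1.61-fold (adjusted p = 0.031). CCN1 and CCN2, matricellular proteins, fell by 1.70 and 1.44 (adjusted p = 0.034 and 0.033), and 1 or more of their treated arrays overlapped the untreated ones. CCN2 was called on 1 of 3 probe sets, and another stood at -0.15. The YAP1 call ended without untreated replicate 1, 3 or 4 or hCG and trilostane replicate 1 or 2 (adjusted p 0.052 to 0.11), and the TEAD4 call without untreated replicate 1, 2 or 3 or hCG and trilostane replicate 2 or 4 (0.056 to 0.094). CCN1 lost its call without untreated replicate 1, 2 or 3 or hCG and trilostane replicate 1, 3 or 4 (0.058 to 0.10), and CCN2 without replicate 1 or 3 of either group (0.10 to 0.11). In the list of 28 matrix genes and proteases, COL5A2, a fibrillar collagen, was the 1 member called lower, beside 1.52% of all genes. It was at -0.60 (adjusted p = 0.038), and its arrays overlapped. That call ended without any 1 array other than untreated replicate 4 and hCG and trilostane replicate 4 (adjusted p 0.057 to 0.12). The interstitial collagens COL1A1 and COL1A2 were at -0.04 and -0.02.

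Of vascular genes, ADM and VCAM1 fell. ADM, the vasodilator adrenomedullin, read 11.32, 11.68, 11.90 and 12.15 untreated and 10.51, 10.54, 10.94 and 10.96 treated. It fell 2.04-fold (-1.03 ± 0.20, adjusted p = 0.011). The ADM call ended in a limma fit with replicate number as a term (adjusted p = 0.084). ADM was the 1 call among 25 angiogenic and vasoactive genes and among 18 genes of hypoxia and glycolysis. Of all genes 2.49% were called. VCAM1, an adhesion molecule that binds leukocytes, fell 2.36-fold (10.83 to 11.88 untreated, 9.78 to 10.53 treated, adjusted p = 0.0078) and was the 1 call among 20 genes of inflammation. ACKR1, a chemokine-binding receptor of venules named after its values were seen, fell 2.50-fold (-1.32 ± 0.22, adjusted p = 0.0040). KDR, the main receptor of vascular endothelial growth factor, was at -0.38 (adjusted p = 0.63).

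Over all genes 0.965% were called higher, and the median was -0.04. The progestin and glucocorticoid response list had 4 of 25 measured members called higher and none lower, with 16 above 0 and a median of 0.16. IRS2, described above, is 1 of the 4. CRISPLD2, a secreted glucocorticoid-induced protein, read 11.08, 11.12, 11.67 and 11.68 untreated and 12.12, 12.19, 12.35 and 12.36 treated. It rose 1.83-fold (adjusted p = 0.016) on 1 of 2 probe sets, a call that ended without untreated replicate 1 (adjusted p = 0.061). KLF15, a glucocorticoid-induced transcription factor, rose 1.69-fold (8.18 to 8.55 untreated, 8.90 to 9.24 treated, adjusted p = 0.014), with its second probe set at 0.30 and not called. The KLF15 call ended in a limma fit with replicate number as a term (adjusted p = 0.081). ANGPTL4, an inhibitor of lipoprotein lipase, rose by 0.71 (adjusted p = 0.046) and lost its call without any 1 array other than hCG and trilostane replicate 2 (adjusted p 0.07 to 0.14). FKBP5, a co-chaperone of steroid receptors, was not called at 0.61 ± 0.36. Its treated arrays stood at 8.32 to 8.39 save replicate 2 at 7.60, and its untreated arrays ran from 6.92 to 8.53. PGR, the progesterone receptor, was at 0.27 ± 0.24 (adjusted p = 0.64). Its untreated arrays read 6.89, 6.96, 7.03 and 7.12, and its treated arrays spread on both sides of them, at 6.51, 7.17, 7.67 and 7.75.

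Every one of 23 measured interferon response genes lay below 0, with a median of -0.69, and this count was the same without centring, after quantile normalization and with centring on the kept probe sets. Called lower were 2 in the main scaling, 1 without centring, 1 after quantile normalization and 0 with centring on the kept probe sets. In the main scaling 1.52% of all genes were called lower. IFIT1, which binds viral RNA, read 9.87, 9.99, 10.61 and 10.88 untreated and 8.91, 8.91, 9.28 and 9.32 treated and fell 2.36-fold (adjusted p = 0.047). IFIT3, of the same family, fell 1.71-fold (adjusted p = 0.039), with 1 untreated and 1 treated array both at 11.64. Both calls were fragile: IFIT1 lost its call without any 1 of the 8 arrays (adjusted p 0.052 to 0.15). IFIT3 lost it without any 1 except untreated replicate 1 and hCG and trilostane replicate 4 (adjusted p 0.056 to 0.12). The averaged level of the list was 9.02 to 9.86 in the untreated arrays of set 1 and 8.49 to 8.86 with hCG and trilostane. It was 8.74 to 8.98 in the untreated arrays of set 2, a range below every untreated array of set 1 and overlapping the treated arrays of set 1. With hCG alone, against the same untreated arrays, none of the 23 genes lay above 0 either (median -0.53). The part of array set in the interferon result was not tested.

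Cell cycle genes lay low, with 1 of 20 above 0 and a median of -0.30 (3 above 0 after quantile normalization), and none was called. MKI67, a marker of dividing cells, was at -0.62 (adjusted p = 0.096) and CCNB2, a mitotic cyclin, at -0.67 (adjusted p = 0.089). The averaged level of the list in hCG and trilostane replicate 4, 8.75, lay within the untreated range of 8.58 to 9.00. The other treated arrays, at 8.35, 8.37 and 8.38, lay below it. With hCG alone against the same untreated arrays, 5 of the 20 genes lay above 0 (median -0.13). In array set 2, with R5020 given as well, 9 did (median -0.02).

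**Figure D3:**
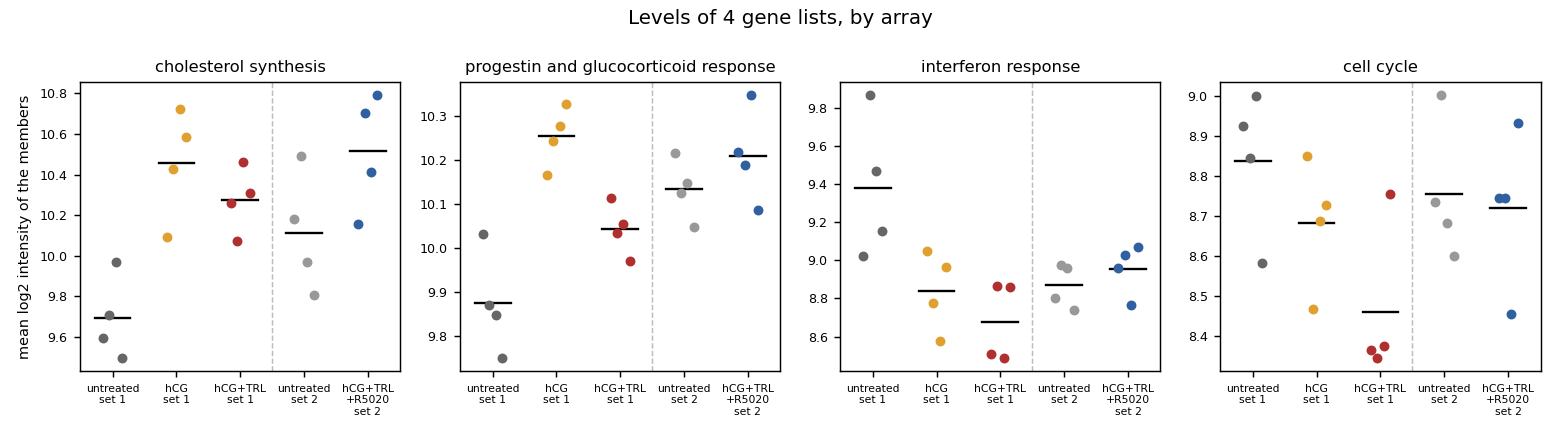
Mean log2 intensity over the measured members (vertical axis) of 4 gene lists in each day 10 array, by group (horizontal axis). Bars are group means and the dashed line parts array sets 1 and 2. The cholesterol synthesis list of the hCG and trilostane arrays (10.07 to 10.46) lies above that of the untreated arrays of set 1 (9.49 to 9.97), and the interferon response list (8.49 to 8.86) lies below them (9.02 to 9.86). Both lists of the hCG and trilostane arrays overlap the untreated arrays of set 2 (9.80 to 10.49 and 8.74 to 8.98).

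The calls of the other lists stand beside 0.965% of all genes called higher and 1.52% called lower. Transporters had 2 of 27 higher. MFSD2A, a transporter of lysophosphatidylcholine lipids, rose 2.76-fold from 6.81 to 7.08 untreated to 7.51 to 9.38 treated (adjusted p = 0.032), and SLC7A8, an exchanger of neutral amino acids, rose 3.13-fold (adjusted p = 0.032). The MFSD2A call ended without any 1 array other than hCG and trilostane replicates 2 and 4 (adjusted p 0.061 to 0.099), and the SLC7A8 call without untreated replicate 2, 3 or 4 or hCG and trilostane replicate 2 or 3 (adjusted p 0.054 to 0.099). In the unfolded protein response list, CHAC1, a glutathione-degrading enzyme, was the 1 call of 18, rising 2.03-fold (adjusted p = 0.039). It lost the call without any 1 array except hCG and trilostane replicate 3 (adjusted p 0.062 to 0.12). Of 20 WNT pathway genes 2 fell, the receptor FZD4 by 0.50 (adjusted p = 0.014) and the transcription factor TCF7 by 0.57 (adjusted p = 0.033). The TCF7 call ended without untreated replicate 1 or 3 or hCG and trilostane replicate 1, 2 or 3 (adjusted p 0.058 to 0.11). Of 17 apoptosis genes APAF1, the core of the apoptosome, fell by 0.50 (adjusted p = 0.046) and lost its call without any 1 of the 8 arrays (adjusted p 0.055 to 0.14). No call was made among 22 antioxidant, 18 oxidative phosphorylation, 11 hormone receptor, 8 prostaglandin and 6 MHC class II genes, in the limma fit that found 1753 of 10368 genes at an unadjusted p under 0.05. Of these, PTGDR, a prostaglandin receptor, was at -1.91 (adjusted p = 0.087).

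**Figure D4:**
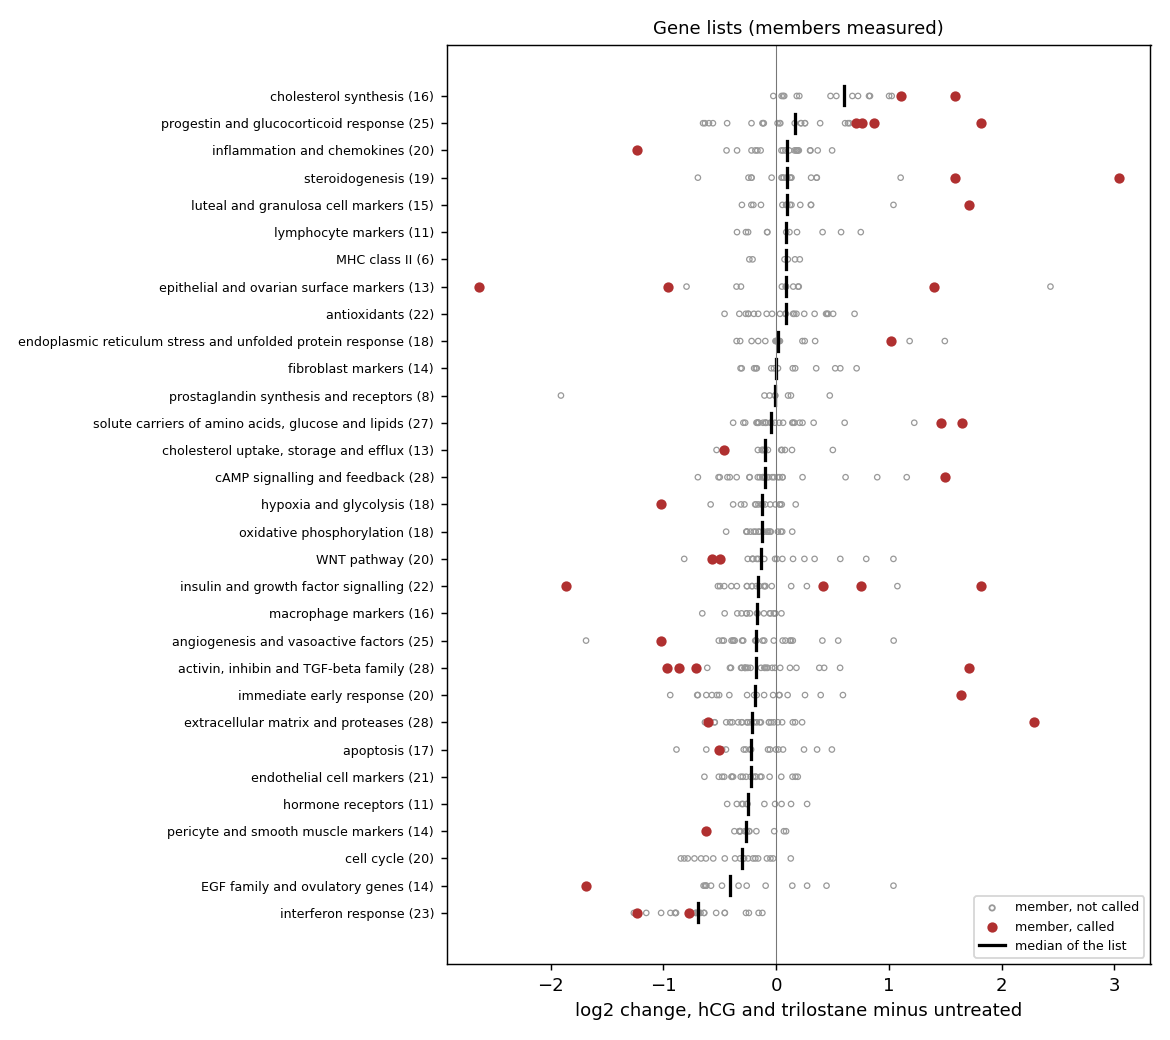
Log2 change with hCG and trilostane (horizontal axis) of each measured member of the lists with 6 or more measured members (vertical axis, number measured in brackets). Filled points are called members and bars are list medians. Cholesterol synthesis has the highest median, 0.61, and interferon response the lowest, -0.69.

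A few rises outside the lists, named after their values were seen, concern metabolism. ALAS1, the first enzyme of heme synthesis, read 10.65, 10.66, 11.43 and 11.80 untreated and 12.34, 12.69, 13.22 and 13.23 treated, a rise of 3.32-fold (adjusted p = 0.0069). ACSL1, which activates fatty acids, rose 2.26-fold (adjusted p = 0.0069), and OSGIN1, a gene induced by oxidative stress, 3.14-fold (adjusted p = 0.0029). PLAUR, the urokinase receptor, rose 3.19-fold (adjusted p = 0.019), a call that ended without untreated replicate 3 or 4 or hCG and trilostane replicate 2 (adjusted p 0.05 to 0.057). PYGL, a glycogen phosphorylase, rose 1.99-fold (adjusted p = 0.032) on 1 of 6 probe sets and lost the call without any 1 array other than untreated replicate 2 and hCG and trilostane replicate 4 (adjusted p 0.056 to 0.11). NT5E, the enzyme that forms adenosine at the cell surface, rose 2.31-fold (adjusted p = 0.025) on 1 of 3 probe sets, with overlapping arrays. Its call ended without untreated replicate 2, 3 or 4 or hCG and trilostane replicate 2 or 4 (adjusted p 0.051 to 0.086).

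Calls among markers of the cell types in the tissue are given by list, beside 2.49% of all genes called (0.965% higher and 1.52% lower). In bulk tissue, fewer cells of a type and less RNA per cell cannot be told apart. Of 15 luteal and granulosa markers 1 was called, FST, with a list median of 0.10. None of 21 endothelial markers was called (4 above 0, median -0.23), none of 16 macrophage markers (1 above 0, median -0.17, but 5 above 0 after quantile normalization) and none of 14 fibroblast markers (7 above 0, median -0.0016, above 0 under the other 3 scalings). Of 14 pericyte and smooth muscle markers 2 lay above 0 (median -0.27) and 1 was called, CSPG4, a proteoglycan of pericytes, which fell by 0.62 (adjusted p = 0.029). That call ended without untreated replicate 1, 3 or 4 or hCG and trilostane replicate 1, 3 or 4 (adjusted p 0.054 to 0.089). The averaged endothelial level was 9.29 to 9.53 untreated and 9.07 to 9.36 treated, and the macrophage level 8.43 to 9.75 and 8.53 to 9.52, so both ranges overlapped. The pericyte and smooth muscle level was 9.48 to 9.57 untreated and 9.07, 9.17, 9.34 and 9.52 treated, so 3 of 4 treated arrays lay below every untreated one. With hCG alone against the same untreated arrays, 8 of these 14 markers lay above 0 (median 0.03). In array set 2, with R5020 given as well, 8 did (median 0.06). Of single markers, PECAM1 of endothelium changed by -0.30, CD68 of macrophages by -0.02 and MYH11 of smooth muscle by -0.32. Listed markers without a kept probe set were not compared. Among 13 epithelial and ovarian surface markers S100A2 and DSP were called lower and CLDN1 higher. DSP, of desmosomes, fell 1.94-fold (adjusted p = 0.035), and CLDN1, of tight junctions, rose 2.64-fold (adjusted p = 0.020). Both calls depended on single arrays, with adjusted p of 0.05 to 0.11 for DSP without any 1 of 6 arrays and 0.052 to 0.071 for CLDN1 without any 1 of 4. The arrays were untreated replicates 3 and 4 and all 4 treated ones for DSP, and untreated replicates 3 and 4 and hCG and trilostane replicates 1 and 4 for CLDN1. The epithelial list averaged 8.07 to 8.40 untreated and 7.86 to 8.46 treated. What any of these marker levels contributes to the calls was not tested.

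The hCG arrays of set 1 show the same genes without trilostane. They share the untreated arrays with the main comparison, so the values are set side by side only. With hCG alone, 426 of 10368 genes were called (4.11%), 346 higher (3.34%) and 80 lower (0.772%). Of probe sets, 979 were called (3.47%), 741 higher (2.62%) and 238 lower (0.843%). The count of genes was 181 to 269 without untreated replicate 1, 3 or 4 or hCG replicate 2 or 3. CYP11B1 changed by 2.28 with hCG alone and 3.04 with trilostane added, FST by 2.11 and 1.71, DHCR7 by 1.98 and 1.58, USP53 by 1.20 and 1.98, HTR2B by -2.86 and -3.02, and S100A2 by -2.62 and -2.64. In the cholesterol synthesis list 8 of 16 genes were called with hCG alone (median 0.79) and 2 with trilostane added (median 0.61). In the progestin and glucocorticoid response list the counts were 6 and 4 (medians 0.31 and 0.16). Over all genes the medians were 0.06 and -0.04. The median difference between the treated groups was -0.23 for the cholesterol list, -0.17 for the progestin list and -0.11 for all genes. After quantile normalization these medians were -0.118, -0.122 and -0.0355. In array set 2, with R5020 given as well, 2 of the 25 genes of the progestin list were called higher. There 10 of the 25 lay above 0 (median -0.06), beside 0.405% of all genes called higher and a median of 0.00022. Array set and R5020 cannot be told apart in these values.

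Tested directly, hCG with trilostane against hCG alone, 0 of 28248 probe sets were called by limma, although 3595 had an unadjusted p under 0.05, and the smallest adjusted p was 0.103. The count became 42 probe sets without hCG and trilostane replicate 1, 4 without replicate 3 of that group and 4 without hCG replicate 1. All hCG arrays carry the reanalysis mark and no hCG and trilostane array does, so mark and trilostane cannot be told apart in these differences. The genes nearest to a call, named after their values were seen, were TMEFF2 and PCDHA5. TMEFF2, a transmembrane protein, read 6.19, 6.22, 6.99 and 7.02 untreated, 6.43, 6.66, 7.07 and 7.53 with hCG and 4.89, 4.97, 5.25 and 5.52 with hCG and trilostane. Its difference between the treated groups was -1.76 ± 0.28 (adjusted p = 0.103), and against untreated tissue it fell at least 1.34-fold (adjusted p = 0.0097). PCDHA5, a protocadherin, stood 0.73 ± 0.15 higher with trilostane than with hCG alone (adjusted p = 0.112) and rose 1.97-fold against untreated tissue (adjusted p = 0.0022) on 1 of 3 probe sets.

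For the 258 called genes the standard error of that difference had a median of 0.18, and for 206 of them its 95% interval lay within a 2-fold change either way. The interval ran from -0.95 to 0.63 for HTR2B, from -0.94 to 0.89 for S100A2, from -1.06 to 0.26 for FST and from -0.35 to 1.86 for CYP11B1. For USP53 the interval was 0.35 to 1.23, for RRAD -1.03 to -0.24, for TNS4 0.41 to 1.95 and for PGR 0.26 to 1.26, none of which passed adjustment over all probe sets. PGR read 6.14, 6.33, 6.73 and 6.87 with hCG alone, below 3 of the 4 hCG and trilostane arrays.

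Array set 2 offers a comparison that shares no array with the first: hCG, trilostane and R5020 against untreated replicates 6 to 9. There 1.04% of 10368 genes were called, 42 higher (0.405%) and 66 lower (0.637%), and 250 of 28248 probe sets (0.885%, 99 higher, 0.35%, and 151 lower, 0.535%). Without untreated replicate 7 the genes numbered 183, and without any other 1 array of set 2 they numbered 39 to 79. In a fit of only the set 2 groups they numbered 14, of which 6 were higher and 8 lower. Of the 258 genes called in set 1, 246 (95.3%) changed in the same direction in set 2, against 64.1% of the other genes. The share was 98 of 100 for the higher and 148 of 158 for the lower genes. The same call was made for 70 genes, 32 higher and 38 lower, which is 27.1% of the genes called in set 1 and 64.8% of those called in set 2. No gene was called in opposite directions. Both comparisons took each gene's variance from the same limma fit, so the shared calls are not independent although no array is shared. The overlap of calls from separate fits of each set was not counted.

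HTR2B in set 2 read 8.55, 9.51, 9.84 and 10.18 untreated and 6.29, 6.31, 7.73 and 7.93 treated, a change of -2.46 ± 0.38 (adjusted p = 0.0045). USP53 was at 1.75 ± 0.21 (adjusted p = 7.9e-04) and STK17B at -1.49 ± 0.22 (adjusted p = 0.0038). RRAD fell by 1.45 (adjusted p = 0.0016), BTC by 1.67 (adjusted p = 0.011), BMP4 by 1.04 (adjusted p = 0.015), and RGS2 rose by 1.43 (adjusted p = 0.0026). These genes thus passed in both sets, in the fit that gives both comparisons the same variance estimate for each gene. CYP11B1 was at 1.89 ± 0.53 in set 2 and did not pass there (adjusted p = 0.106), nor did DHCR7 at 1.01 (adjusted p = 0.087) or S100A2 at -1.51 (adjusted p = 0.127). Over the 100 higher genes the median was 1.08 in set 1 and 0.76 in set 2, and over the 158 lower genes -0.72 and -0.53. The set 1 values chose these genes, so the smaller medians in set 2 carry no test.

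**Figure D5:**
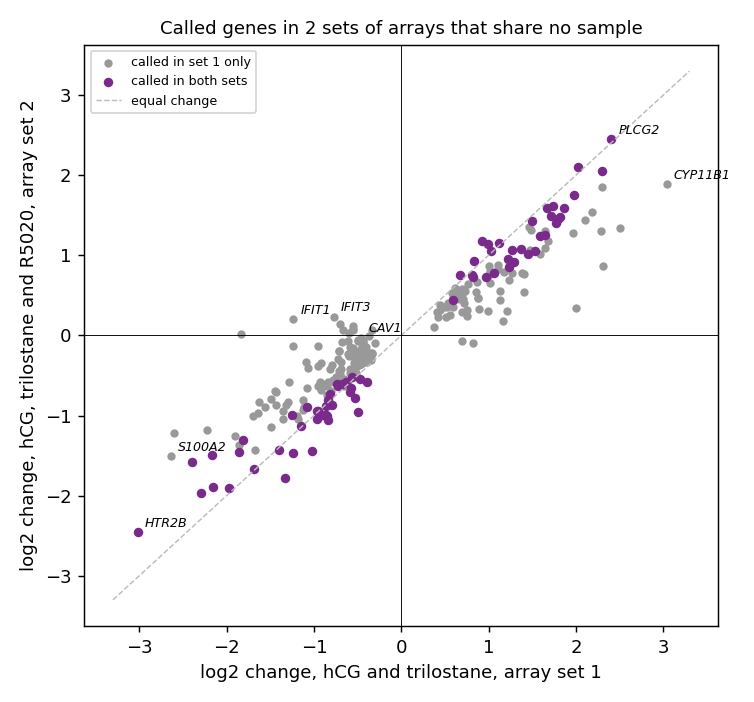
Log2 change with hCG and trilostane in array set 1 (horizontal axis) against the change with hCG, trilostane and R5020 in array set 2 (vertical axis) for the 258 genes called in set 1. The 70 genes called in both sets are purple and the dashed line marks equal change. Most points lie in the quadrants of like direction, and IFIT1 and IFIT3 are among 12 that do not.

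The difference between the effects in the 2 sets was called for 0 of 28248 probe sets in the limma fit. It had an unadjusted p under 0.05 for 972, and the smallest adjusted p was 0.999. The named genes nearest to a difference were IFIT3, IFI44, IFIH1 and XAF1, all interferon-induced, and PRICKLE2, of planar cell polarity. IFI44, for instance, was at -0.94 in set 1 and 0.69 in set 2, and PRICKLE2 at 0.73 and -0.82. Of the 23 interferon genes none lay above 0 in set 1 and 14 did in set 2 (median 0.07). Array set, R5020 and the untreated animals of each set differ together between these effects and cannot be told apart.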

How the data were processed

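The authors deposited log2 intensities per probe set for 33 arrays. How background was corrected and arrays were summarized and normalized: not given in the sources used here. Of 52865 probe sets, 158 controls were dropped, and probe sets were kept when 4 or more of the 20 day 10 arrays exceeded 6.19, the median over all values (28248: 17342 with 1 symbol, 236 with several, 10670 with none). Symbols come from the platform annotation. Array medians differed by 0.182, past a limit of 0.1, so each array was centred. limma 3.58.1 (R 4.3.3; lmFit, eBayes with a mean-variance trend) fitted the 20 arrays as 5 groups, untreated arrays split by array set, with 15 residual degrees of freedom. The fit was tested on simulated data. A gene is represented by its brightest kept probe set. A fold with 1 group mean under 6.19 is counted from there and given as "at least".

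Named by rule were the 14 largest rises and falls among called genes with non-overlapping arrays (LOC symbols skipped), up to 3 called members per gene list with the smallest adjusted p, the 5 genes nearest a difference between sets, and STAR, HSD3B2, CYP17A1, CYP19A1, PGR, FKBP5, FST, AREG, HTR2B and S100A2. Other list members are examples. The comparison, lists and rule were chosen with earlier results of these data known. Alternatives covered scaling, filter, variance trend, array letter, replicate block, arrays in the fit, probe set choice and single arrays left out. The number of arrays limits the precision.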

Additional observations from a re-analysis of the deposited data

Results flagged for a closer look

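Of 130 groups of 4 arrays looked at for the named genes (untreated of set 1 and hCG with trilostane), 9 held 1 array far from the other 3 by Dixon's criterion, which chance gives in about 1 in 20 groups. Among untreated arrays, replicate 3 read 11.13 for TTC19 (others 9.31 to 9.59) and 9.26 for HTRA3 (8.08 to 8.28). Replicate 2 read 7.70 for STK26 (8.82 to 9.03), and replicate 1 read 7.89 for SMAD7 (7.65 to 7.67). In the hCG and trilostane group, replicate 1 read 13.97 for RGS2 (13.44 to 13.49). Replicate 2, which also had the highest array median before centring, read 7.16 for APAF1 (7.39 to 7.40), 7.60 for FKBP5 (8.32 to 8.39) and 12.31 for AREG (13.01 to 13.13). Replicate 3 read 6.94 for CHAC1 (7.90 to 7.99).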

How the results depend on the processing

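All 622 probe sets called for hCG and trilostane against untreated kept their sign under each alternative in which they were tested. The count was 272 when the fit held the 8 arrays compared and 299 to 568 with 1 array left out (299 without untreated replicate 1). For the other comparisons the counts with only the groups compared were 623 for hCG alone (979 in the main fit) and 31 for the R5020 group (250), and with 1 array left out 389 to 1426 and 97 to 444. For trilostane added to hCG the count of 0 became 1 in the fit of all 33 arrays and 0 to 42 with 1 array left out. The share of higher calls (39.9%) was 48.3% without centring (289 and 309), 56.2% after quantile normalization (357 and 278) and 60.3% with centring on the kept probe sets (331 and 218). Of the 54 called named genes 21 stayed called under every alternative. No called named gene changed sign, and CYP19A1, not called, ran from -0.19 to 0.24. TTC19 was at 0.45 (adjusted p = 0.136) as the mean of its probe sets. The cause of these shifts was not tested.

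Replicate numbers are shared between groups, but same-numbered untreated and treated arrays did not deviate together (correlations -0.238 to 0.0126), so the numbers were not taken to pair samples. With the replicate block 250 probe sets were called for hCG and trilostane, 388 for hCG alone and 0 for trilostane added. No 2 arrays were near-equal (lowest SD of differences 0.318), so averaging them was not run. The difference between sets was not run with all 33 arrays, where it has no separate untreated groups. Signals near 6.19 or below limit the smallest levels that can be compared.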
